A study of Mus musculus with 16 samples.

Results

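The cytochrome P450 enzymes of fat described here are 9 genes, Cyp2e1, Cyp2f2, Cyp4b1, Cyp4v3, Cyp1b1, Cyp27a1, Cyp7b1, Cyp2d22 and Cyp20a1, of the 93 protein-coding P450 genes in the expression table. They were matched by RefSeq accession to 16 entries, each a RefSeq transcript, of the 130343 entries in all. Cyp2e1 and Cyp2f2 were picked on their lower level in obesity, so their values for the diet are a description and carry no test. RNA was sequenced from SAT (subcutaneous adipose tissue, inguinal) and VAT (visceral adipose tissue, mesenteric) of 8 male WT C57BL/6J mice. The 4 lean controls ate a normal laboratory diet, and the 4 obese mice ate a high-fat diet with 42% of its energy from fat and 0.2% cholesterol, begun at 10 weeks of age and kept up for 12 to 14 months. The 16 libraries, 1 for each tissue of each mouse, form 4 groups of 4, and the SAT of a mouse joined both inguinal depots. Visible vessels were dissected away and the remaining tissue was sequenced in bulk, so in each result below fewer cells of a type and less RNA per cell cannot be told apart.

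P450 enzymes are haem proteins that insert an oxygen atom into their substrates, among them drugs, solvents, fatty acids, steroids and sterols. Those of the endoplasmic reticulum receive electrons from P450 oxidoreductase (Por), at times with cytochrome b5, and those of mitochondria receive them through ferredoxin reductase and ferredoxin. The liver is their best known site. In fat, whose adipocytes store lipophilic compounds, P450 enzymes act on fatty acids, retinoids, sex steroids and cholesterol.

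The promoters of Cyp2e1 and Cyp2f2 are shown because these genes had the greatest differences between lean and obese mice among the members tested. Each line gives the 250 bases before the gene start, from the RefSeq promoter table of build GRCm38.p6 (plus strand, chr7:140763569-140763818 for Cyp2e1 and chr7:27119705-27119954 for Cyp2f2). Capitals mark matches, on either strand, to 4 motifs. These are TATAAA for a TATA box, CCAAT for a box of that name (read as ATTGG where it lies on the other strand), GCGTG for the core of the element bound by the aryl hydrocarbon receptor, and AGGTCA for the half-site of nuclear receptors.
Cyp2e1: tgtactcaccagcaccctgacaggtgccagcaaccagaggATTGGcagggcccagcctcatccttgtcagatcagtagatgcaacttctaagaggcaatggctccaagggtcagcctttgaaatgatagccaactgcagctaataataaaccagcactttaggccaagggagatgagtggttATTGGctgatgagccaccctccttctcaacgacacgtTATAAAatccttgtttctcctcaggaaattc
Cyp2f2: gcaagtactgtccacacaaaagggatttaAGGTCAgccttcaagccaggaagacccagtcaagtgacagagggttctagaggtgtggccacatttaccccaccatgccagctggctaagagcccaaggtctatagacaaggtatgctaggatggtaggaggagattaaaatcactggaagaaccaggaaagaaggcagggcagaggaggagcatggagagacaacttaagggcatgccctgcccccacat
In Cyp2e1 the TATA box began 31 bases before the start, and 2 CCAAT boxes lay on the other strand, beginning 210 and 68 bases before it. Cyp2f2 held 1 match, a half-site that began 221 bases before the start. Among the 32851 promoters of the table, cut to the same window, 12.4% held TATAAA, 33.8% CCAAT, 28.2% GCGTG and 14.0% AGGTCA. Promoters were found for 7 members. Cyp1b1 and Cyp4v3 each held 1 GCGTG, Cyp20a1 held 2, Cyp27a1 held 2 CCAAT boxes, and Cyp4b1 held none of the 4 motifs. The letters describe the windows and do not show binding.

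Total counts ranged from 1256082 in VAT of lean mouse 1 to 16614407 in SAT of an obese mouse, and VAT of obese mouse 1 was also shallow (2247737). Of the 16 entries, 9 held counts and 8, from 7 members, were tested. Each of these 8 was above 1 CPM (counts scaled to the library total) in all 16 libraries. Values below are CPM scaled with TMM factors, given as mean ± SD over 4 mice. Tests are edgeR's quasi-likelihood F-tests over 13288 entries, with Benjamini-Hochberg adjustment over all of them, and called means an adjusted p below 0.05. Adipocyte markers were present throughout, with Adipoq at 5766 ± 603 CPM in lean SAT and 6110 ± 1019 CPM in lean VAT. Mesothelial markers, summed, stood at 242 to 591 CPM in lean VAT and at 0.165 to 1.40 CPM in lean SAT.

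Cyp2e1, which oxidises ethanol, acetone and other small molecules and is best known from the liver, had the most listed counts of the P450 genes in lean fat. The gene lies at chr7:140343652-140355167 (GRCm39, plus strand). The 4 lean mice had 3820, 4275, 3372 and 2411 CPM in SAT, and the 4 obese mice had 122, 170.4, 269 and 171 CPM. In VAT they had 2883, 5145, 6261 and 3706 CPM if lean and 138, 324, 465 and 308 CPM if obese. Lean and obese mice did not overlap in either tissue, and over both tissues the lowest lean value was 2411 CPM and the highest obese value 465 CPM. The means were 3469 ± 796 and 183 ± 61.7 CPM in SAT, a ratio of 19.0, and 4499 ± 1501 and 309 ± 134 CPM in VAT, a ratio of 14.6. On the log2 scale the fitted differences were -4.24 (standard error 0.32) in SAT and -3.86 (standard error 0.31) in VAT. Of all entries, 4.84% were called lower with obesity in SAT and 4.08% in VAT, and the choice of Cyp2e1 and Cyp2f2 on these contrasts allows nothing to be read from their place among them.

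Summed adipocyte markers moved far less than Cyp2e1. The list had a median of 49689 CPM in lean and 41690 CPM in obese SAT (ranges 41494 to 58168 and 37482 to 52378), and of 29828 and 23896 CPM in VAT (ranges 21928 to 34797 and 15653 to 26437). By entry, 1 of its 16 entries fell in SAT and 8 of 16 fell in VAT, several of these of Lipe, with no marker at 0 (4.84% and 4.08% of all entries were called lower). Fabp4 and Lep weighed most in the sum, at 28791 and 14041 CPM in lean SAT. Cfd, the marker that fell in SAT, went from 236 ± 72.7 to 84.9 ± 19.2 CPM there and from 276 ± 248 to 108 ± 60.9 CPM in VAT. Lep was called in neither tissue. Set against Adipoq in the same library, the CPM of Cyp2e1 was 39.0 to 81.3% of that of Adipoq in lean SAT and 2.78 to 5.18% in obese SAT. In VAT it was 60.7 to 87.4% in lean and 5.10 to 8.95% in obese mice. Macrophage markers were higher in obese mice, 5 of 6 entries in SAT and 6 of 6 in VAT (6.21% and 6.84% of all entries were called higher). Of those called in VAT 1, a minor entry of Itgax (0.168 CPM in lean and 1.51 CPM in obese VAT), was above 1 CPM in obese VAT alone. The main entry of Itgax was above 1 CPM in all 16 libraries, at 16.2 CPM in lean and 141 CPM in obese VAT. The summed level of the macrophage markers went from 1236 to 1715 CPM in lean SAT to 1947 to 2909 CPM in obese SAT, and from 2142 to 2863 CPM to 4504 to 6991 CPM in VAT. Their Adgre1 and Cd163 were near 0 in all groups. The part of these markers in the level of any P450 gene was not tested.

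Hepatocyte markers were looked at because liver RNA would carry Cyp2e1. Their sum was 78.0 to 230.5 CPM in lean SAT, 119 to 136.5 CPM in obese SAT and 29.1 to 52.3 CPM in lean VAT. It was 435.8 CPM in VAT of obese mouse 1 and at most 30.7 CPM in VAT of the other obese mice. That library had the lowest Cyp2e1 of the 4 obese VAT libraries, and without this mouse the fitted difference in VAT was -3.66. In SAT the sum was nearly all Alb (77.4 to 228.7 CPM in lean mice), while Apoa1, Ttr and Fgb had no count in any SAT library and Apoa2 reached at most 1.68 CPM. In VAT of obese mouse 1, Alb was 356 CPM and Apoa1 40.5 CPM. The part of liver RNA in the level of Cyp2e1 was not tested.

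The 2 depots were compared within each mouse. In lean mice Cyp2e1 was higher in VAT in 3 of 4 mice, with VAT at 0.755 to 1.86 times SAT, and the difference was not called (log2 0.35, standard error 0.15, adjusted p = 0.138). Without lean mouse 1, whose VAT library is the shallowest, it was called (log2 0.59, adjusted p = 0.00399). In obese mice Cyp2e1 was higher in VAT in 4 of 4 mice, by 1.13 to 1.90 times (log2 0.70, standard error 0.15, adjusted p = 0.00143), and it was called in all 13 alternatives. The order of the group means was thus lean VAT, lean SAT, obese VAT and obese SAT. The ranges of both lean groups overlapped, as did those of both obese groups.

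Cyp2f2, known from the club cells of the mouse airway, where it activates naphthalene, lies on the same chromosome (chr7:26819322-26833090, GRCm39, plus strand), beside the Cyp2a and Cyp2b genes. Lean SAT held 52.9, 128, 183 and 124 CPM and obese SAT 7.59, 3.80, 3.44 and 3.38 CPM. VAT of lean mice held 7.01, 10.0, 25.5 and 9.69 CPM, and that of obese mice 1.53, 2.14, 2.48 and 1.02 CPM. Lean SAT stood above every other library. The obese libraries lay below the lean ones of the same tissue without overlap, while lean VAT and obese SAT overlapped. Means were 122.1 ± 53.4 and 4.55 ± 2.03 CPM in SAT, a ratio of 26.8, and 13.1 ± 8.43 and 1.79 ± 0.65 CPM in VAT, a ratio of 7.29. The fitted log2 differences were -4.74 (standard error 0.39) in SAT and -2.90 (standard error 0.45) in VAT. Across the alternatives the SAT value ranged from -5.11 to -4.47 and the VAT value from -3.12 to -2.34.

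Unlike Cyp2e1, Cyp2f2 was far higher in SAT. In lean mice SAT exceeded VAT in 4 of 4 mice, by 7.17 to 12.8 times, and the fitted difference of VAT from SAT was -3.33 (standard error 0.20, adjusted p = 3.68e-11). In obese mice SAT again exceeded VAT in 4 of 4 mice, but by 1.38 to 4.97 times (log2 -1.14, standard error 0.26, adjusted p = 0.00213). Both calls held in all 13 alternatives. With the mouse as a block, the diet difference was smaller in VAT by 2.195 on the log2 scale (standard error 0.34), and without the block, as in the separate diet values above, by 1.83 (standard error 0.59), which is a description because it is made of the contrasts on which the gene was picked. For Cyp2e1 the blocked value was 0.35 (standard error 0.22). Club cell markers were at or near 0: Scgb3a2 had no count, and Scgb1a1, Scgb3a1 and Scgb3a2 together reached at most 0.769 CPM in any library.

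**Figure D1:**
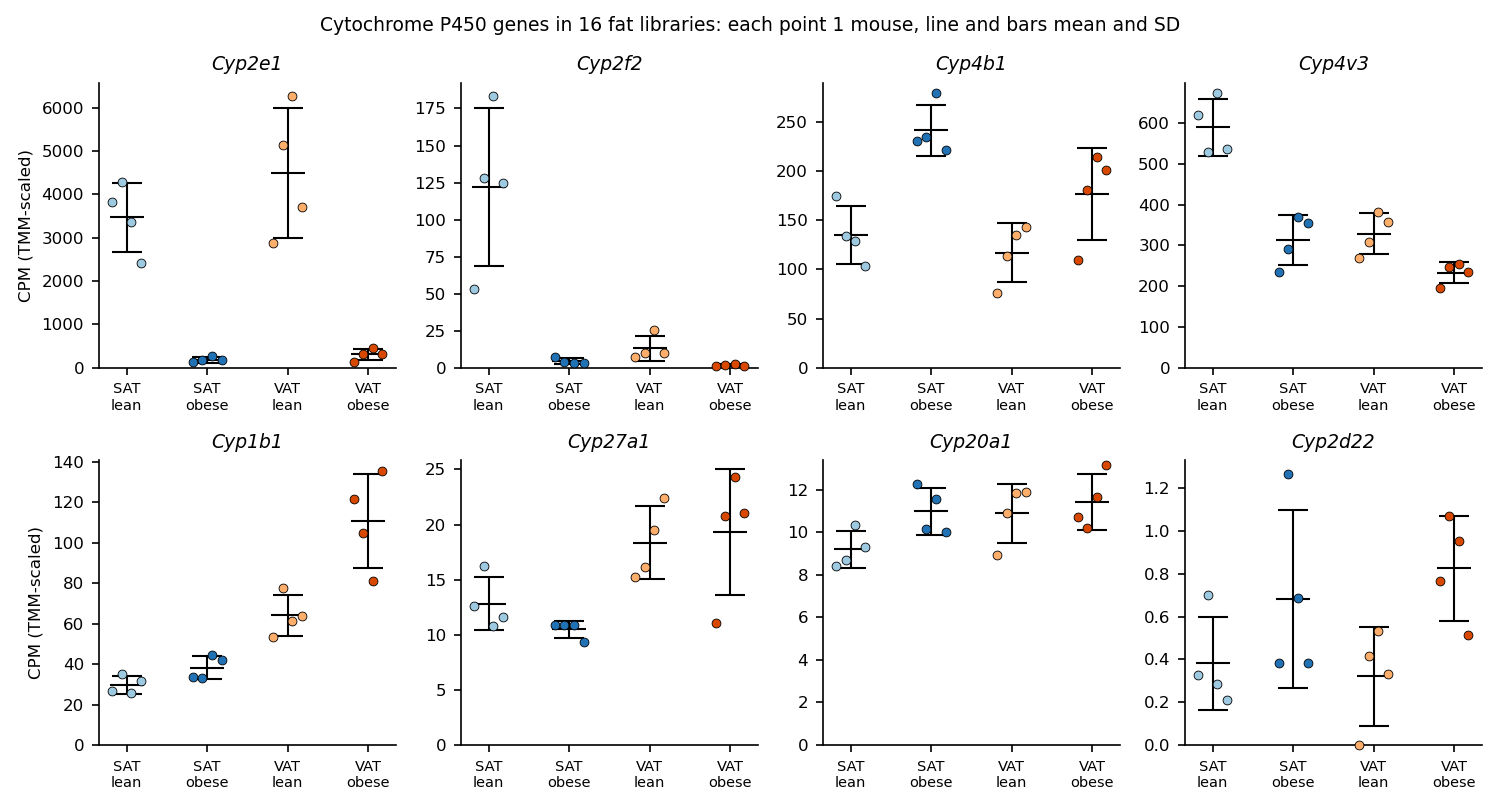
CPM scaled with TMM factors (y axis, from 0) of 8 P450 genes by tissue and diet (x axis); each point is 1 mouse and the line with bars is the mean with its SD, n = 4. Cyp2e1 and Cyp2f2 lay lower in every obese library than in every lean library of the same tissue, Cyp4v3 likewise at smaller distance, and Cyp1b1 was highest in obese VAT (81.3 to 135 CPM).

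The remaining members were not picked on the diet, and 5 of them could be tested. Among these, 1 rose and 1 fell in SAT (Cyp4b1 and Cyp4v3), and 1 rose and 1 fell in VAT (Cyp1b1 and Cyp4v3). Over all entries, 6.21% were called higher and 4.84% lower in SAT, and 6.84% higher and 4.08% lower in VAT. With 5 genes, these counts say little about P450 genes as a class. None of the 5 was called for a diet response that differed between the depots (edgeR, against 2.17% of all entries), and DESeq2 called none. At an unadjusted p under 0.05 the count was 1, for Cyp4v3 (log2 0.43, standard error 0.16, adjusted p = 0.167).

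Cyp4v3 and Cyp4b1 belong to the CYP4 family, whose members hydroxylate fatty acids. Cyp4v3 (chr8:45757972-45786330, minus strand) is the mouse counterpart of the human enzyme CYP4V2. It had 619, 528, 675 and 538 CPM in lean SAT and 235, 292, 369 and 355 CPM in obese SAT. VAT of lean mice had 269, 308, 382 and 357 CPM, and that of obese mice 197, 246, 254 and 235 CPM. Obese mice lay below lean mice without overlap in both tissues. Cyp4v3 fell by 0.92 on the log2 scale in SAT (standard error 0.14, adjusted p = 1.91e-04), a call held in all 15 alternatives. In VAT it fell by 0.50 (standard error 0.14, adjusted p = 0.0245), and this call was lost without lean mouse 3 (adjusted p = 0.0986) or without obese mouse 4 (adjusted p = 0.0597). SAT exceeded VAT in 4 of 4 lean mice (log2 difference of VAT from SAT -0.84, adjusted p = 7.54e-06) and in 4 of 4 obese mice (-0.41, adjusted p = 0.00684, or 0.0525 without obese mouse 4). Lean SAT was thus apart from the other 3 groups, whose neighbouring ranges overlapped except those of lean and obese VAT.

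Cyp4b1 (chr4:115476281-115504999, minus strand), which also activates several plant and environmental toxins and is known from the lung, moved the other way. It had 174, 134, 129 and 103 CPM in lean SAT and 230, 234, 280 and 221 CPM in obese SAT, and every obese SAT library exceeded every library of the other groups. It rose in SAT by 0.83 on the log2 scale (standard error 0.19, adjusted p = 0.00603), or 1.79 times by the means, and in all 15 alternatives. VAT of lean mice had 76.4, 114, 135 and 143 CPM, and that of obese mice 110, 181, 214 and 201.5 CPM, and these overlapped through obese mouse 1. The log2 difference in VAT was 0.58 (standard error 0.19, adjusted p = 0.0524). It was called in 6 of 15 alternatives, among them the fit without obese mouse 1 (log2 0.71, adjusted p = 0.0114). Between depots Cyp4b1 was not called in lean mice (log2 -0.18, adjusted p = 0.567, higher in VAT in 2 of 4 mice). In obese mice it was lower in VAT in 4 of 4 (log2 -0.48, standard error 0.17, adjusted p = 0.0424), a call lost in 5 of 13 alternatives, among them the fit with no block for the mouse (adjusted p = 0.0855) and those without obese mouse 1, 2 or 3 (adjusted p up to 0.205).

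Cyp1b1 (chr17:80008966-80022532, minus strand) oxidises oestrogens, retinoids and polycyclic hydrocarbons and is a known target of the aryl hydrocarbon receptor. Its level was higher in VAT than in SAT. Lean SAT had 26.6, 34.9, 25.8 and 31.8 CPM and obese SAT 33.5, 33.4, 44.4 and 42.0 CPM, with overlap. VAT of lean mice had 53.5, 77.8, 61.5 and 63.6 CPM, and that of obese mice 122, 105, 81.3 and 135 CPM, without overlap. Cyp1b1 rose in VAT by 0.77 on the log2 scale (standard error 0.16, adjusted p = 0.00263), 1.73 times by the means, and was called in all 15 alternatives. In SAT the log2 difference was 0.37 (standard error 0.16, adjusted p = 0.153). The difference between these responses, 0.40 (standard error 0.20), was not called (adjusted p = 0.369). VAT exceeded SAT by 2.00 to 2.38 times in 4 of 4 lean mice (log2 1.11, standard error 0.15, adjusted p = 8.23e-06) and by 1.83 to 3.64 times in 4 of 4 obese mice (log2 1.51, standard error 0.14, adjusted p = 3.83e-08). Counts of Cyp1b1 fell on 1 of its 2 entries, and the other was listed at 0.

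Cyp27a1 and Cyp7b1 act on cholesterol and its oxidised forms. Cyp27a1 (chr1:74752314-74777056, plus strand) is a mitochondrial enzyme that oxidises the side chain of cholesterol. Summed over its 2 entries it had 12.6, 16.3, 10.8 and 11.7 CPM in lean SAT and 10.9, 10.9, 10.9 and 9.38 CPM in obese SAT. In VAT the lean mice had 15.3, 16.2, 19.6 and 22.5 CPM and the obese mice 11.1, 20.8, 24.4 and 21.1 CPM. Lean and obese mice overlapped in both tissues, and neither entry was called for diet (log2 -0.41 and -0.08 in SAT, -0.05 and 0.42 in VAT, adjusted p from 0.262 to 0.942). Summed, it was higher in VAT in 3 of 4 lean and 4 of 4 obese mice. Neither entry was called between depots in lean mice (log2 0.62 and 0.33, adjusted p = 0.104 and 0.438), although the first was called without lean mouse 2 (log2 0.94, adjusted p = 0.0333). Both were called higher in VAT in obese mice (log2 0.96, standard error 0.24, adjusted p = 0.00448, and log2 0.77, standard error 0.23, adjusted p = 0.0155). Without obese mouse 3 both calls were lost (adjusted p = 0.0521 and 0.0572), and the second was also lost without obese mouse 2 or 4 and with no filter on low counts.

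Cyp7b1 (chr3:18117411-18297740, minus strand), an oxysterol hydroxylase, was listed at 0 on all 3 of its entries in all 16 libraries. Cebpa, a transcription factor of adipocytes, with 5 entries, and Pecam1, an adhesion protein of endothelium, with 4, were also listed at 0 throughout. How reads shared by several transcripts were counted is not given in the sources used here, so no level of Cyp7b1 is read from these zeros. The same holds for Cyp2d22 (chr15:82254727-82264597, minus strand), a member of the Cyp2d family, with 91 counts in all on 1 of 2 entries, between 0 and 1.27 CPM by library. It passed the filter in 2 libraries only and was not tested. Its count of 0 in VAT of lean mouse 1 allows up to 1.91 CPM, counting error only.

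Cyp20a1 (chr1:60382444-60427224, plus strand), a P450 with no established substrate, was even across the groups, at 9.19 ± 0.86, 11.0 ± 1.11, 10.9 ± 1.39 and 11.4 ± 1.30 CPM in lean SAT, obese SAT, lean VAT and obese VAT. Its log2 differences were 0.26 (standard error 0.16) for diet in SAT, 0.04 (standard error 0.17) for diet in VAT, 0.25 (standard error 0.19) between depots in lean mice and 0.07 (standard error 0.18) in obese mice, and none was called in any alternative. Counts fell on 1 of its 3 entries.

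**Figure D2:**
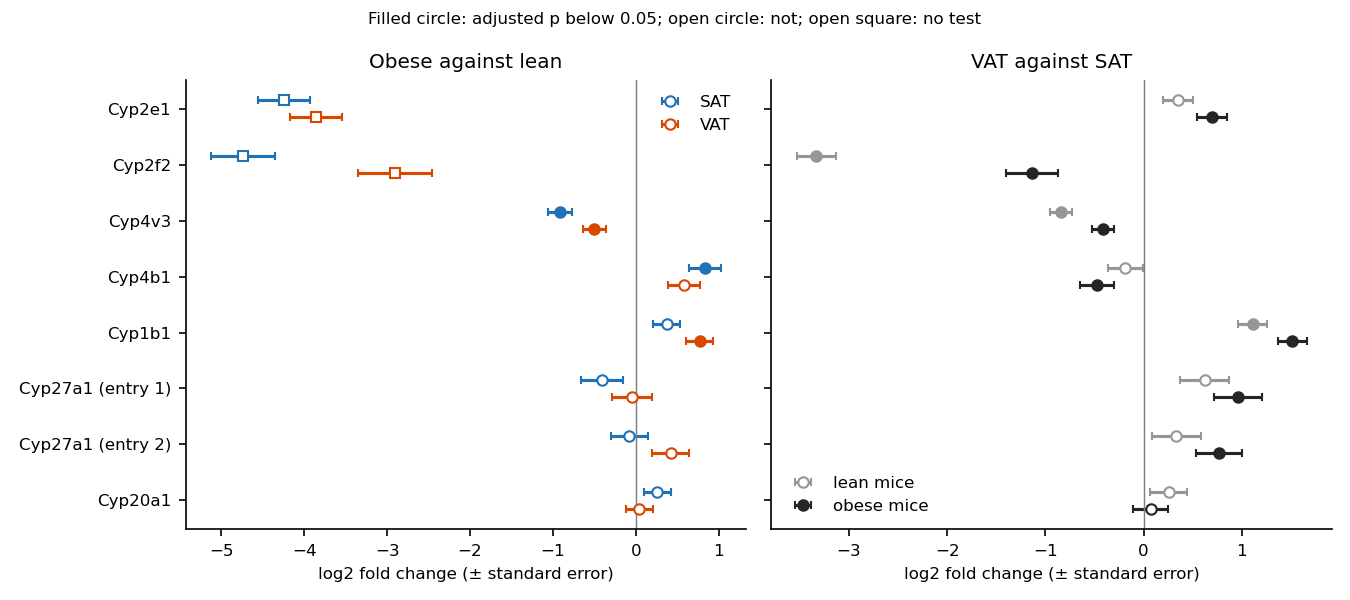
Fitted log2 fold changes (x axis, bars are standard errors) of obese against lean mice and of VAT against SAT for the tested P450 entries (y axis; for Cyp27a1, entry 1 is NM_024264 and entry 2 XM_006495607), from 4 mice per group. Filled circles were called at an adjusted p below 0.05, open circles were not, and squares carry no test; Cyp2f2 lay at -3.33 between depots in lean mice and at -1.14 in obese mice.

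Over the whole set, the depots were called different for 3 members in lean and 6 in obese mice. In lean mice 1 of 7 tested members was higher in VAT (Cyp1b1) and 2 were lower (Cyp2f2 and Cyp4v3), where 7.98% of all entries were called higher and 6.84% lower. In obese mice 3 were higher in VAT (Cyp1b1, Cyp2e1 and Cyp27a1) and 3 were lower (Cyp2f2, Cyp4v3 and Cyp4b1), where 15.9% of all entries were called higher and 13.5% lower. The larger number in obese mice stood beside larger percentages over all entries. Cell type markers moved in the same contrasts. Of 16 adipocyte entries, 4 were called lower in VAT in lean and 12 in obese mice, and of 6 macrophage entries 3 and 6 were called higher. The minor entry of Itgax, called in obese mice, passed the filter only through obese VAT. The main entry of Itgax, also called there, was above 1 CPM in all 16 libraries. Mesothelial markers, summed, had a median of 489 CPM in lean and 302 CPM in obese VAT, against 0.296 and 0.209 CPM in SAT. The part of these markers in the depot differences was not tested. The change of a depot difference with diet is the difference of the diet responses given above.

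**Figure D3:**
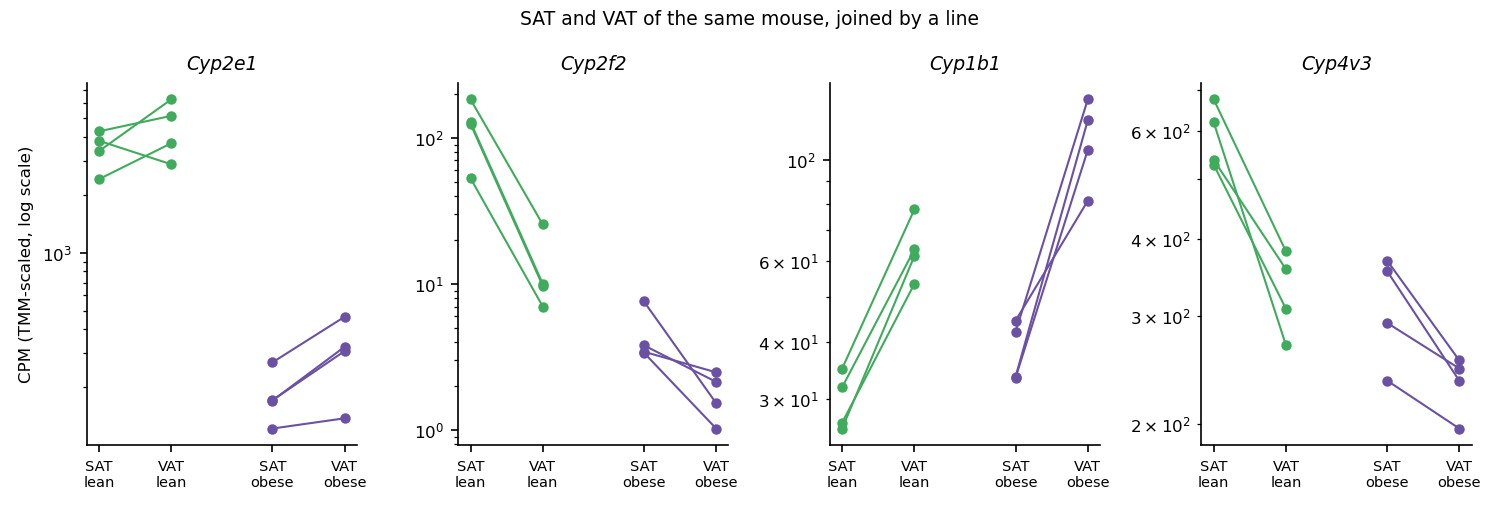
CPM scaled with TMM factors (y axis, log scale) of 4 P450 genes in SAT and VAT; each line joins both tissues of 1 mouse, green for lean and purple for obese mice. Cyp2f2 and Cyp4v3 were lower and Cyp1b1 higher in VAT of every mouse, and Cyp2e1 was higher in VAT of 4 of 4 obese and 3 of 4 lean mice.

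The makeup of the P450 counts differed with diet. Among counts on all 93 P450 genes, of which 62 had any, Cyp2e1 took 74.0 to 82.9% in lean SAT and 84.7 to 90.3% in lean VAT, but 17.7 to 26.3% in obese SAT and 20.3 to 42.0% in obese VAT. Cyp4v3 took 10.2 to 16.5% in lean SAT and 34.2 to 41.9% in obese SAT, and Cyp4b1 2.59 to 3.68% and 26.2 to 33.4%. In VAT Cyp1b1 went from 0.887 to 1.59% in lean mice to 7.36 to 17.9% in obese mice. These shares depend on the level of Cyp2e1, on which that gene was picked, and also on the diet differences of Cyp4v3, Cyp4b1 and Cyp1b1 given above. Longer transcripts count for more in them. The summed P450 level was 3257 to 5156 CPM in lean SAT and 688 to 1022 CPM in obese SAT, and 3359 to 6936 and 679 to 1105 CPM in VAT. Without Cyp2e1 it was 846 to 1061 CPM in lean SAT, 566 to 753 CPM in obese SAT, 476 to 674 CPM in VAT of lean mice and 541 to 661 CPM in VAT of obese mice. The 9 members together held at least 98.56% of the P450 counts in every lean library and at least 86.95% in every obese one. How reads shared by several transcripts were counted is not given in the sources used here. These percentages are thus of the listed counts, and genes with several entries could have a larger share.

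**Figure D4:**
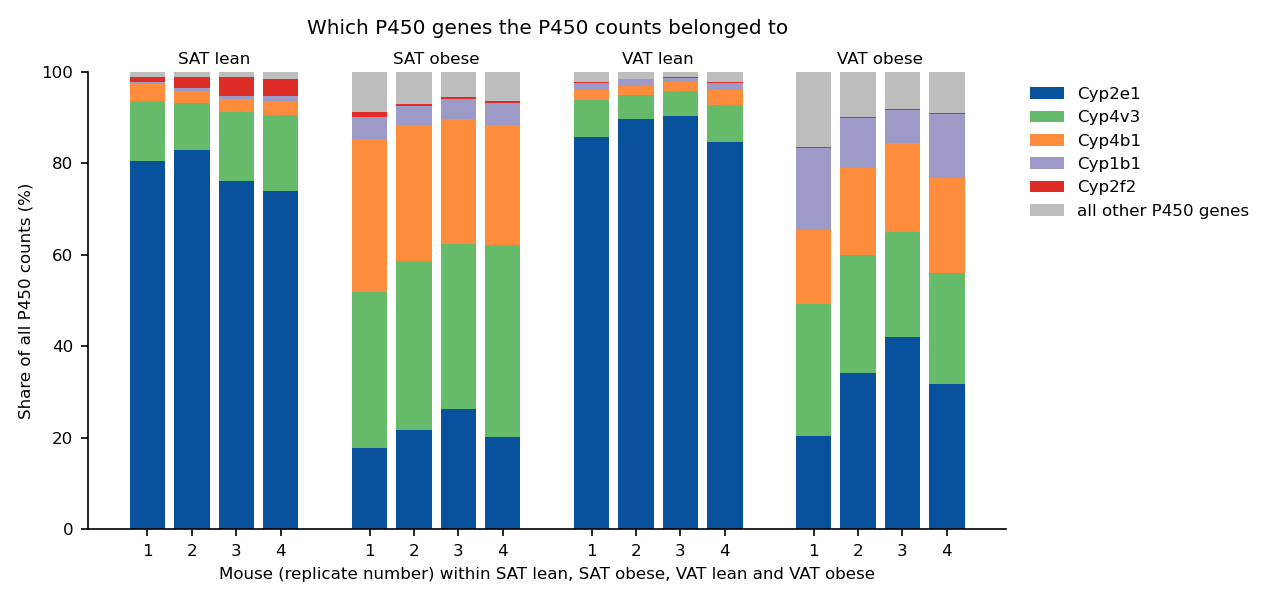
Share of all P450 counts (y axis, percent) taken by 5 P450 genes and by all others in each library (x axis, mouse number within tissue and diet). Cyp2e1 held most of each bar in lean SAT and VAT (at least 74.0%) and at most 42.05% in obese mice, where Cyp4v3 and Cyp4b1 filled much of the rest.

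Levels were compared between genes per kilobase of transcript, for the 4 members with a single entry, with GENCODE lengths of the canonical transcript. In lean SAT Cyp2e1 stood at 1647 ± 378 CPM per kb, above Cyp4v3 at 155 ± 18.2, Cyp4b1 at 71.4 ± 15.5 and Cyp2f2 at 64.9 ± 28.4 CPM per kb, and the ranges of the last pair overlapped. In lean VAT the order was the same, with 2136 ± 713, 86.2 ± 13.2, 61.9 ± 15.8 and 6.94 ± 4.48 CPM per kb, and Cyp4v3 overlapped with Cyp4b1. In obese SAT Cyp4b1 had the highest mean, 127.5 ± 13.7 CPM per kb, followed by Cyp2e1 at 86.9 ± 29.3 and Cyp4v3 at 82.0 ± 16.1, with Cyp2f2 at 2.42 ± 1.08. There the ranges of Cyp2e1 (57.9 to 128) and Cyp4b1 (117 to 148) overlapped. In obese VAT Cyp2e1 had the highest mean, 146.6 ± 63.5 CPM per kb, with a range of 65.5 to 221 that overlapped those of Cyp4b1 (58.1 to 113) and Cyp4v3 (51.5 to 66.5).

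**Figure D5:**
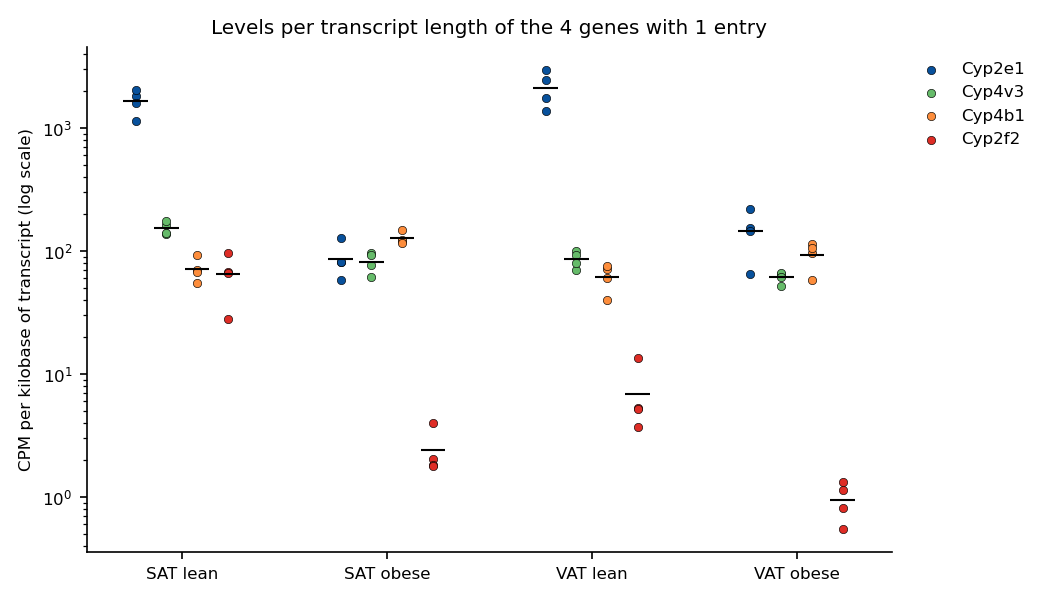
CPM per kilobase of transcript (y axis, log scale) of the 4 members with 1 entry, by tissue and diet (x axis); points are mice and lines are means, n = 4. Cyp2e1 stood above the others in lean fat, at 1145 to 2030 in SAT and 1369 to 2973 in VAT, and within reach of Cyp4b1 and Cyp4v3 in obese fat.

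Partners and neighbours of the P450 enzymes were taken from fixed lists. Among redox partners, 1 of 13 tested entries rose and 1 fell in SAT, and 2 fell in VAT, with median log2 differences of -0.12 and -0.32 against 0.01 and 0.02 over all entries. Of all entries 6.21% were called higher and 4.84% lower in SAT, and 6.84% higher and 4.08% lower in VAT. Fdx1, the ferredoxin that passes electrons to mitochondrial P450 enzymes such as Cyp27a1, fell in both, from 20.1 ± 3.30 to 13.8 ± 2.81 CPM in SAT (log2 -0.54, adjusted p = 0.0478) and from 21.0 ± 3.14 to 12.8 ± 1.59 CPM in VAT (log2 -0.69, adjusted p = 0.0155), on 1 of 2 entries. Cyb5b, the cytochrome b5 of the outer mitochondrial membrane, rose in SAT from 2002 ± 144 to 2942 ± 361 CPM (log2 0.56, adjusted p = 0.0128) and stood at 1282 ± 116 and 1235 ± 302 CPM in VAT, a difference between tissues that was itself called (log2 -0.63, adjusted p = 0.0368). Pgrmc2, a haem-binding membrane protein, fell in VAT from 372 ± 36.4 to 266 ± 34.0 CPM (log2 -0.48, adjusted p = 0.00862). Por, the electron donor of the endoplasmic reticulum, was not called for diet by edgeR on any of its 3 entries, but 2 of them were lower in VAT at an unadjusted p under 0.05, and DESeq2 called these 2 lower.

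Of 9 tested entries for haem synthesis and breakdown, 1 rose in SAT and 2 rose in VAT, with medians of 0.10 and 0.10 (6.21% of all entries were called higher in SAT and 6.84% in VAT). Hmox1, which breaks haem down, rose in VAT from 53.4 ± 14.2 to 128 ± 75.1 CPM (log2 1.25, standard error 0.26, adjusted p = 0.00255). Macrophage markers, given above, were higher in the same contrast, and their part was not tested. Blvra, which reduces the biliverdin so formed, rose on 1 of 7 entries, from 1.02 ± 0.40 to 3.82 ± 1.22 CPM in SAT (adjusted p = 0.0115) and from 0.726 ± 0.531 to 2.32 ± 1.27 CPM in VAT (adjusted p = 0.0207). Of 5 tested entries for steps of haem synthesis, edgeR and DESeq2 called 0 for diet in either tissue, and 0 reached an unadjusted p under 0.05. Of the 10 tested entries for receptors and factors known to control P450 genes, 0 were called for diet in SAT or VAT by edgeR or DESeq2, with medians of 0.08 and -0.08, and 2 entries of Nr1h3, a sterol-sensing receptor, were higher in SAT at an unadjusted p under 0.05. The list is only partly measured: Nr1i2, Rxrb, Hnf4a, Cebpa and Cebpb were listed at 0.

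Around Cyp7b1 and Cyp27a1, 2 of 9 tested entries for oxysterol and bile acid steps were called higher in SAT, and 3 higher and 1 lower in VAT, with medians of 0.16 and -0.07 (over all entries, 6.21% were higher in SAT, and 6.84% higher and 4.08% lower in VAT). Abcg1, a sterol exporter, rose from 79.4 ± 16.7 to 197 ± 26.1 CPM in SAT (log2 1.31, adjusted p = 4.79e-06) and from 109.9 ± 14.3 to 344 ± 30.5 CPM in VAT (log2 1.65, adjusted p = 1.87e-07). Abca1, another, rose in SAT from 22.0 ± 5.34 to 34.1 ± 2.91 CPM (adjusted p = 0.0114). The other 2 called in VAT passed the filter on low counts only through obese VAT, where they were high, so that they had to differ, and are given as a description. The oxysterol-forming Ch25h was 0.850 ± 0.321 CPM in lean and 3.44 ± 1.17 CPM in obese VAT. Cyp8b1, a sterol hydroxylase of bile acid synthesis, was 0.918 ± 0.713 and 2.46 ± 0.675 CPM. Scp2, a sterol carrier, fell from 28.0 ± 7.23 to 17.4 ± 0.485 CPM (adjusted p = 0.0132). Macrophage markers, given above, moved upward in the same contrasts, and their part was not tested.

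Outside the 9 members, 14 entries of 12 other P450 genes were tested, and 2 were called higher in SAT and 1 in VAT, while 0 fell by edgeR or DESeq2 (at an unadjusted p under 0.05, 0 were lower in SAT and 1, Cyp4f17, in VAT). Over all entries, 6.21% were called higher in SAT and 6.84% in VAT, and 1 of the calls in SAT and the call in VAT rest on the filter, as given next, so nothing is read from these counts. Cyp26b1, which clears retinoic acid, rose in SAT on 1 of 5 entries (log2 1.84, standard error 0.57, adjusted p = 0.0411). The other entry called in SAT, that of Cyp2r1, a vitamin D hydroxylase, was above 1 CPM in 3 obese SAT libraries alone and passed the filter only through them, so its means of 0.28 CPM in lean and 1.63 CPM in obese SAT are a description. The entry called in VAT was that of Cyp8b1, described above. Cyp2s1 (chr7:25501895-25516338, GRCm39) was not called for diet. It was above 1 CPM in all 8 VAT libraries but in 1 SAT library before TMM scaling, and so passed the filter through VAT. As a description, it stood at 12.5 CPM in lean VAT against 0.909 CPM in lean SAT, and at 15.98 against 0.747 CPM in obese mice.

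The entries most like Cyp2e1 over the 16 libraries, by the root-mean-square distance of log2 CPM after centring each entry, were Lrtm1 (0.74), Slco2b1 (0.75, 1 of 8 entries), Pon1 (1.15, 1 of 4 entries), Ntrk3 (1.17, 1 of 4 entries) and Gm30199 (1.18). The median distance over 11812 entries with a symbol was 2.197. Cyp2f2 ranked 108th from Cyp2e1, at 1.61. The entries most like Cyp2f2 were Gm32507 (1.02), 9030619P08Rik (1.11), Gm41048 (1.20), Gm454 (1.28, 1 of 10 entries) and Echdc2 (1.33, 1 of 5 entries), against a median of 2.32, and Cyp2e1 ranked 32nd. Several of these entries were low, with highest group means of 2.72 CPM for Pon1, 4.73 CPM for Slco2b1 and 3.93 CPM for Gm41048. The points share the library and its depth, and Cyp2e1 and Cyp2f2 were picked for a difference that fills much of these distances.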

How the data were processed

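RNA was measured in SAT and VAT of 4 lean and 4 obese mice. Per the submitters' processing notes, the authors trimmed reads with Trim Galore 0.6.6 (the study's methods give another version), aligned them to GRCm39 with HISAT2 2.2.0 and counted them per RefSeq transcript with HTSeq 0.13.5. The deposited table holds 16 columns of raw counts, used here, and 16 of CPM, which equal the counts per column total and carry no TMM factor; 0 value columns were left unmapped. Symbols were matched by accession for 82.0% of entries.

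The counts were tested with edgeR 4.0.16 in R 4.3.3 (TMM, legacy quasi-likelihood F-test, CPM above 1 in at least 3 of 16 libraries, Benjamini-Hochberg), all libraries together. Diet was tested without a block, and depots and the difference of responses with the mouse as a block. The column names pair SAT and VAT by mouse: deviations from the group means correlated by -0.009 to 0.173 (median 0.0759) in 8 pairs of 1 mouse and by -0.154 to 0.121 (median -0.0392) in 24 other pairs. Replicates were separate mice.

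Alternatives were RLE size factors, no filter, DESeq2 1.42.0, counts summed per symbol, 1 tissue alone, a replicate block, limma 3.58.1 voom, no mouse block, and each mouse left out. On simulated counts edgeR recovered 95.0% of 200 changed entries among 12396 in SAT (3.06% of calls false) and 90.0% in VAT (5.76% false). How recovery depends on the size of a difference was not tested. Nothing is thus read from these values about entries that were not called.

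The genes named are the 9 members, other tested P450 genes called for diet or above a group mean of 10 CPM, called members of the pathway lists, and the 5 nearest entries of Cyp2e1 and Cyp2f2. Some listed genes are not reported here. Members and lists were chosen with earlier results of these data known. Gene positions are from GENCODE M39 (GRCm39). Figures were drawn with matplotlib 3.10.9.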

Additional observations from a re-analysis of the deposited data

Results flagged for a closer look

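Of 40 groups of 4 libraries checked, 1 for each P450 member or entry in each tissue and diet, 3 held a library far from the other 3 for its group's range. Chance flags about 1 in 20 groups. Cyp2f2 in SAT of obese mouse 1 was 7.59 CPM, where the next highest was 3.80 CPM. Cyp2f2 in VAT of lean mouse 3 was 25.5 CPM, where the next highest was 10.0 CPM. Cyp27a1, summed over its entries, was 9.38 CPM in SAT of obese mouse 4, where the other 3 mice had at least 10.9 CPM. No cause was tested.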

How the results depend on the processing

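The count of members called for diet in SAT (2) was the same in all 15 alternatives. In VAT (2) it ranged from 1 to 3 with each mouse left out, and was 1 without lean replicate 3 and 1 without obese replicate 4, where Cyp4v3 was not called. The count for the difference of responses was 0 throughout. The counts between depots were 3 to 4 in lean mice and 4 to 6 in obese mice over the alternatives. No value changed its direction with a call. Of the values of single entries under the alternatives, 531 were counted as unchanged, 8 passed the threshold anew and 13 no longer passed it. The 531 include the values of Cyp2e1 and Cyp2f2 on the contrasts where they carry no test. These had no threshold to keep, and counted as unchanged where they moved by less than the SD of the libraries around their group means.

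With a replicate block, where lean and obese mice share only a number, the count was 2 in SAT and 3 in VAT, Cyp4b1 being added. With no replicate block for the mouse, the counts were 0 for the difference of responses, 3 for the depots in lean mice and 5 in obese mice.

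Depth limits the low members: 1 count stood for up to 0.637 CPM, in VAT of lean mouse 1. Shared reads of genes with several entries were counted in a way not given in the sources used here, which limits what the levels of Cyp7b1, Cyp2d22, Cyp1b1, Cyp20a1 and Cyp27a1 show. Diet was compared over 4 mice a group, and Cyp2e1 and Cyp2f2 could not be tested for it here.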

Other observations

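Liver and intestinal P450 genes with few counts were seen in 2 VAT libraries, and were singled out after their values were seen. Cyp3a11, a major drug-metabolising P450 of liver and intestine, was 18.3 CPM in VAT of obese mouse 1 and 5.28 CPM in VAT of lean mouse 4, at most 0.0822 CPM in the other VAT libraries and listed at 0 in all SAT libraries. In VAT of obese mouse 1, Cyp2d9 was 1.91 CPM and Cyp2a5 1.53 CPM. The same library had the highest sum of hepatocyte markers, 435.8 CPM, with intestinal epithelium markers at 17.6 CPM. VAT of lean mouse 4 had the highest sum of intestinal epithelium markers, 44.0 CPM, with Fabp2 at 15.1 CPM and Vil1 at 5.83 CPM, and VAT of lean mouse 2 had 35.5 CPM. In the other libraries that sum was 11.5 to 23.7 CPM. The part of these markers in the P450 values was not tested.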
